A study of Rattus norvegicus with 18 samples.

Results

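The cells of repairing rat bone were examined for 8 genes of the cellular defence against oxidants and reactive aldehydes: Akr1b8, Nqo1, Txnrd1, Srxn1, Slc7a11, Gclc, Gclm and Gsr. They were taken by gene symbol from a table of 17337 genes, all 8 were present, and all 8 passed the filter on low counts, which kept 11814 genes. The tissue was bone within 1 mm of a 3D-printed scaffold that filled a critical-sized defect of the rat radius. Of the 3 scaffolds, PCL was bare polycaprolactone, CaP held microparticles of calcium phosphate in that polymer, and ACPC-NP held nanoparticles made of chitosan and amorphous calcium phosphate. Each was sampled at 2 and at 6 weeks after implantation, with 3 libraries in each of these 6 groups, or 18 libraries in all. All animals were labelled WT, the sources used here give neither age nor strain, and every group held a scaffold, so PCL is the barest of the 3 and not an empty defect. Marrow was treated with red blood cell lysis buffer and then with collagenase, dispase and DNase, bone pieces were digested with collagenase, the released cells of both were pooled, and polyA RNA was sequenced. Whether the 3 libraries per group are separate animals is not in the labels, so p-values measure only the spread between these libraries, which may be technical in part.

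Most of these genes are known targets of NRF2 (gene Nfe2l2), a transcription factor that KEAP1 holds back until oxidants or electrophiles modify KEAP1. NRF2 then pairs with a small MAF protein and binds antioxidant response elements, short DNA motifs near its target genes. Slc7a11 imports the cystine, glutamate-cysteine ligase (subunits Gclc and Gclm) and Gsr supply reduced glutathione, Txnrd1 and Srxn1 serve the thioredoxin and peroxiredoxin cycle, and Nqo1 and Akr1b8 reduce quinones and aldehydes. Developing red cells are also rich in glutathione and peroxiredoxin enzymes.

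RefSeq promoter windows of build GRCr8, each from 250 bases before to 50 bases after a gene's start, were available for 7 of the 8 genes, with 2 windows for Txnrd1 and none for Gsr. Both strands of these 8 windows were searched for the core antioxidant response element TGACNNNGC and for GCTGAGTCA or GCTGACTCA, a form read by small MAF partners of NRF2. The 3 windows with a match are printed to show where in the promoter it lies, 5′ to 3′ on the strand of the gene, with the match in capitals.
Srxn1, chr3:161064562-161064861, plus strand: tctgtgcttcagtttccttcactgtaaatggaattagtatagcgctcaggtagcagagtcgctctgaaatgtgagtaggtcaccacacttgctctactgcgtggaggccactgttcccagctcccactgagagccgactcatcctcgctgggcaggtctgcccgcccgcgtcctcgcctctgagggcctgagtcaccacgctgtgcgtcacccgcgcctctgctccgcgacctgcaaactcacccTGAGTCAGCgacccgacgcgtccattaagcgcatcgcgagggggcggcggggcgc
Txnrd1, chr7:22755855-22756154, minus strand: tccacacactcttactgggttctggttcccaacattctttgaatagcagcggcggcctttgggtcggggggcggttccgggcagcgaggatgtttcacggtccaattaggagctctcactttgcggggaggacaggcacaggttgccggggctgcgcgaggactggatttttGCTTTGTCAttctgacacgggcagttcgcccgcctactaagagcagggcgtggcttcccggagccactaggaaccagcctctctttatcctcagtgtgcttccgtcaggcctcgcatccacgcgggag
Gclm, chr2:213031885-213032184, plus strand: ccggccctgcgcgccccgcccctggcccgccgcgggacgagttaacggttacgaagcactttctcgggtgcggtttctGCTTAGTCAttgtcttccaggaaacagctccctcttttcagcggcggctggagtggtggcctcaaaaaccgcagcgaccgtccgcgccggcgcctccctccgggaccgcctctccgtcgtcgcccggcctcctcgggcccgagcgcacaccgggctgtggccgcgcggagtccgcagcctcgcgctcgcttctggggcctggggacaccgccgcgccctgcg
The Srxn1 match begins 5 bases before the start, runs across it and reads GCTGACTCA on the opposite strand. A window with GCTGAGTCA or GCTGACTCA is uncommon, at 0.762% of all 33469 rat windows. The Txnrd1 match, 78 bases before the start, reads TGACAAAGC and the Gclm match, 172 bases before it, reads TGACTAAGC, both on the opposite strand. The TGACNNNGC form is common: 12.1% of all windows held it, and 151 windows held both forms. The windows of Akr1b8, Nqo1, Gclc and Slc7a11 and the second window of Txnrd1 held neither form, which says only that these letters are not within the window. Of the genes with a match, Srxn1 and Txnrd1 were called higher around ACPC-NP at week 2 below and Gclm was not. Akr1b8 and Nqo1, with no match, were also called higher. The part of these motifs in the levels was not tested.

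Total counts ran from 18880604 to 27186587 per library. One library, ACPC-NP week 2 replicate 3, stood apart from the other 17: its first principal component was 91.4 against -23.9 to 25.5, and its TMM scaling factor was 0.706 against 0.950 to 1.11. The week 2 differences of the 8 genes and of the related genes are therefore given with and without it. Markers of the labelled tissue were present, with osteoblast markers at a summed 4696 to 26315 CPM (counts scaled to library size with TMM factors) and neutrophil markers at 14691 to 38029 CPM. Erythroid markers summed to 24700 to 74345 CPM in spite of the lysis of red cells, while the erythroid factor Gata1 was listed at 0 in all libraries. In such bulk samples, fewer cells of a type and less RNA per cell cannot be told apart.

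At week 2, 4 of the 8 genes were higher around ACPC-NP than around the other scaffolds, and the difference of each was smaller without replicate 3. Against the CaP and PCL mean, Akr1b8, Nqo1, Txnrd1 and Srxn1 were called higher by edgeR's quasi-likelihood test at an adjusted p under 0.05. That is 4 of 8 genes beside 4.99% of all genes called in that comparison (4.88% called higher). When only the groups compared entered the fit, edgeR called none of the 4, with adjusted p = 0.0875 for Akr1b8, 0.118 for Nqo1, 0.144 for Txnrd1 and 0.190 for Srxn1. The share of all genes called with only those groups is not given here. With all 18 libraries DESeq2 called all 4, beside 8.01% of all genes, and voom all but Srxn1 (adjusted p = 0.114), beside 7.4%. Both tools also called Slc7a11. Without replicate 3 edgeR called 0 of the 8, beside 0.0837% of all genes; 3 then had an unadjusted p under 0.05 beside 6.89% of genes, and DESeq2 and voom each called 1, Akr1b8 (beside 0.713% and 0.62% of genes). In the other 2 libraries Akr1b8 still lay above all libraries of CaP and PCL, the differences of Srxn1 (0.26 ± 0.36) and Gsr (0.02 ± 0.24) lay within 1 SE of 0, and that of Gclm was below 0 with and without replicate 3.

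**Figure D1:**
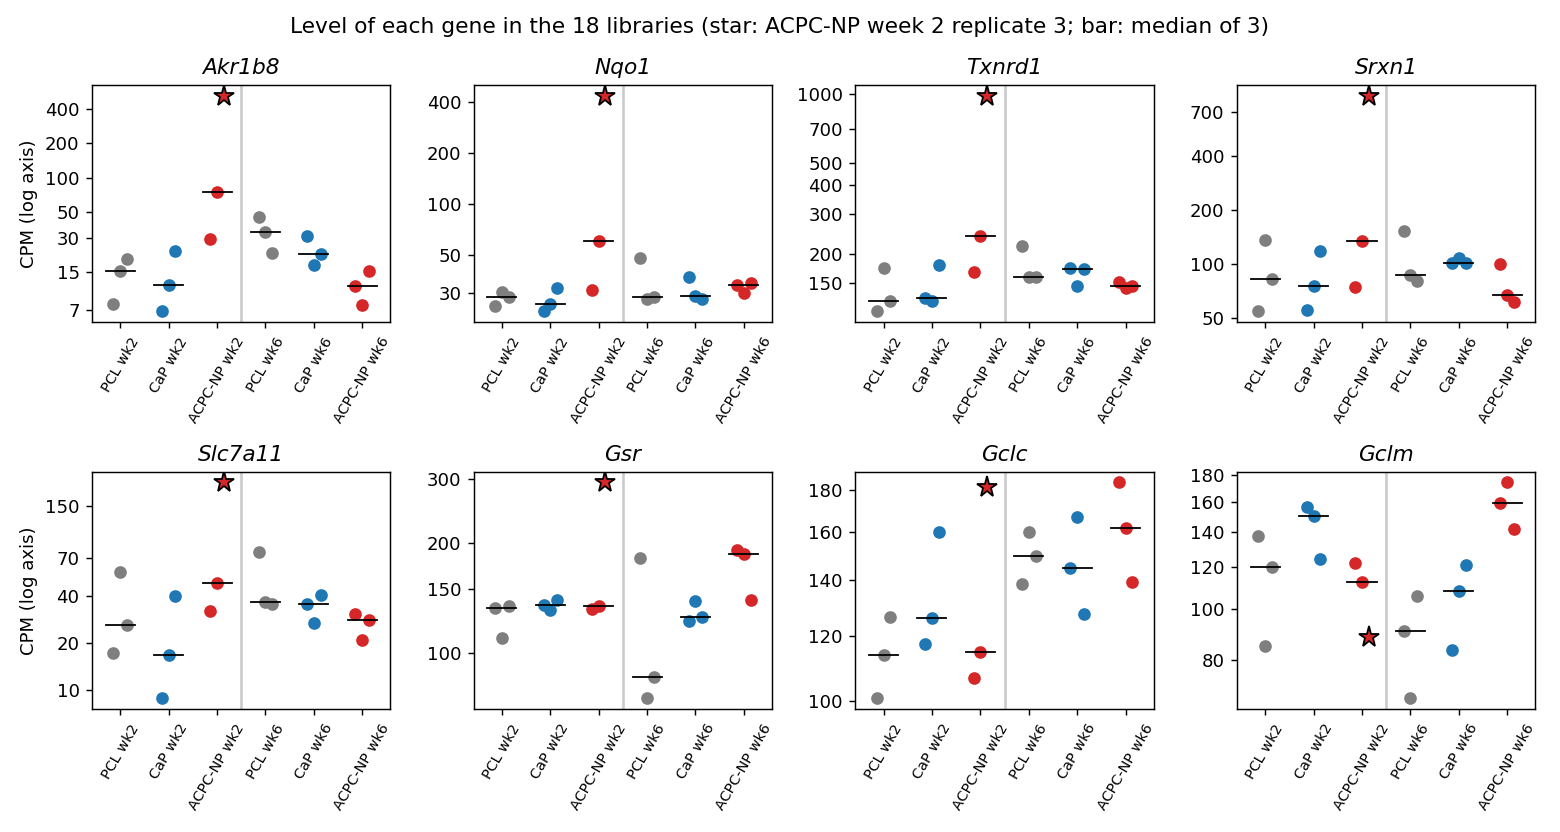
Level of each of the 8 genes in every library, in CPM on a log axis (the range differs between panels). Each point is 1 library, bars are medians of 3, grey is PCL, blue CaP and red ACPC-NP, and the star is ACPC-NP week 2 replicate 3. The star is the highest point for 6 genes, the second highest for Gclc and low for Gclm, and the 3 red points of Akr1b8 lie above all other points of week 2 and below all other points of week 6.

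Akr1b8, an aldo-keto reductase that reduces aldehydes such as those formed from oxidised lipids, had the largest differences of the 8 genes between ACPC-NP and the other scaffolds. Around ACPC-NP at week 2 it stood at 29.1, 74.6 and 518 CPM in replicates 1, 2 and 3. Around CaP it stood at 6.82, 11.5 and 22.9 CPM and around PCL at 7.97, 15.4 and 19.6 CPM in the same week. The 3 ACPC-NP libraries all lay above the 6 others, with or without replicate 3, and Akr1b8 was the only one of the 8 genes to do so, beside 5.8% of all genes (7.01% without replicate 3). The difference from the mean of CaP and PCL was 3.88 ± 0.64 on the log2 scale (SE; 14.7-fold; adjusted p = 0.00869, edgeR). Without replicate 3 it was 1.88 ± 0.43 (3.68-fold; adjusted p = 0.160, edgeR), with an adjusted p of 0.0116 by DESeq2 and 0.0416 by voom.

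By week 6 the order of Akr1b8 was the other way round. ACPC-NP libraries stood at 11.4, 7.76 and 15.3 CPM, against 31.3, 17.2 and 21.4 CPM around CaP and 45.2, 33.6 and 22.0 CPM around PCL. The 3 ACPC-NP libraries were the 3 lowest of that week and overlapped neither other scaffold, as for 7.53% of all genes. The difference from the mean of CaP and PCL, -1.29 ± 0.70 (adjusted p = 0.321, edgeR), was not called, nor was it without replicate 3 of week 2 (-1.28 ± 0.44, adjusted p = 0.0979), where DESeq2 gave an adjusted p of 0.0212 and voom 0.0564. Of all genes tested, 7 (0.0593%) lay above all CaP and PCL libraries at week 2 and below all at week 6 around ACPC-NP (0.0762% without replicate 3), and Akr1b8 was one of them. The test of the change itself, as an interaction of scaffold and week, gave -5.40 ± 1.14 against PCL (adjusted p = 0.278, edgeR) and -4.93 ± 1.13 against CaP (adjusted p = 0.244, edgeR), which were not called. DESeq2 called Akr1b8 in both, with adjusted p = 0.000308 and 0.00339, and also without replicate 3, with adjusted p = 0.00278 and 0.0335. Rat Akr1b8 has close paralogs such as Akr1b10 and Akr1b7, and the sources used here do not say how reads matching more than 1 of them were counted, so its level is uncertain to that extent.

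Nqo1, a quinone reductase often read as a marker of NRF2 activity, stood at 31.2, 60.8 and 436 CPM around ACPC-NP at week 2. The 6 other libraries of that week ran from 23.4 to 31.9 CPM, so replicates 2 and 3 were above all of them and replicate 1 lay within their range. The difference was 2.67 ± 0.52 (6.37-fold; adjusted p = 0.0143, edgeR) and, without replicate 3, 0.73 ± 0.24 (1.66-fold; adjusted p = 0.428). At week 6 the ACPC-NP libraries, at 33.7, 30.1 and 34.4 CPM, lay inside the range of the others, 27.6 to 48.5 CPM, with a difference of -0.01 ± 0.55 (adjusted p = 0.993, edgeR).

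The thioredoxin branch had the same order of libraries at week 2. Txnrd1, the cytosolic reductase that keeps thioredoxin reduced, stood at 167, 240 and 981 CPM around ACPC-NP, against 112 to 178 CPM in the 6 others. Replicates 2 and 3 were above that range and replicate 1 inside it. The difference was 1.72 ± 0.38 (3.29-fold; adjusted p = 0.0211, edgeR), and 0.53 ± 0.19 (1.44-fold; adjusted p = 0.521) without replicate 3. Srxn1, the sulfiredoxin that repairs overoxidised peroxiredoxins, stood at 75.0, 135 and 864 CPM, against 54.7 to 136 CPM in the 6 others. Here replicate 3 alone was above that range, and the difference was 2.04 ± 0.54 (4.11-fold; adjusted p = 0.0424, edgeR) with it and 0.26 ± 0.36 (1.20-fold; adjusted p = 0.963) without it. At week 6 neither was called: Txnrd1, at 143 to 151 CPM around ACPC-NP, lay below all 3 PCL libraries (158 to 216 CPM), as for 14.2% of all genes, but overlapped CaP (145 to 173 CPM). Srxn1, at 67.7 and 61.5 CPM in replicates 2 and 3 of ACPC-NP and higher in replicate 1, lay below all 3 CaP libraries (101 to 108 CPM), as for 12.5% of all genes, but overlapped PCL (80.6 to 153 CPM). Their differences from the mean of CaP and PCL were -0.22 ± 0.40 and -0.46 ± 0.57.

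Slc7a11, the cystine and glutamate exchanger that supplies cysteine for glutathione, stood at 32.0, 48.7 and 213 CPM around ACPC-NP at week 2. The 6 other libraries spread widely, from 8.88 to 57.0 CPM, and only replicate 3 was above them. Its difference of 1.85 ± 0.55 (3.61-fold) missed the threshold, with an adjusted p of 0.0658 by edgeR, while DESeq2 and voom called it; without replicate 3 it was 0.57 ± 0.49 (1.48-fold; adjusted p = 0.931). At week 6 the ACPC-NP libraries, at 30.9, 20.9 and 28.1 CPM, lay below the 3 PCL libraries (35.4 to 76.1 CPM), as for 14.2% of all genes. They overlapped CaP (26.9 to 40.4 CPM), and edgeR made no call.

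Gclc, Gsr and Gclm, the enzymes of glutathione synthesis and recycling, were not called at week 2 by edgeR. Gclc, the catalytic subunit of glutamate-cysteine ligase, stood at 107, 115 and 182 CPM around ACPC-NP at week 2, against 101 to 160 CPM in the 6 others. Its difference of 0.12 ± 0.16 (adjusted p = 0.710, edgeR) was -0.17 ± 0.14 without replicate 3 and -0.08 when libraries were scaled by total count alone, so no direction can be given. Gsr, which reduces oxidised glutathione, stood at 132, 134 and 293 CPM against 110 to 139 CPM: replicate 3 was above all others and the other 2 were level with them, and the difference of 0.52 ± 0.27 (adjusted p = 0.311) was 0.02 ± 0.24 without replicate 3. Scaling by total count lowered the median difference of all genes in this comparison from -0.02 to -0.16; replicate 3 has the low scaling factor given above.

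Gclm, the modifier subunit that makes the ligase more efficient, went the other way from the 6 genes that peaked in replicate 3. At week 2 it stood at 122, 113 and 88.5 CPM around ACPC-NP, at 156, 151 and 124 CPM around CaP, and at 137, 84.9 and 120 CPM around PCL. All 3 ACPC-NP libraries lay below the 3 CaP libraries, as for 7.91% of all genes, replicate 3 was the lowest of them, and PCL overlapped both; the difference from the mean of CaP and PCL was -0.25 ± 0.18 (adjusted p = 0.459, edgeR). At week 6 Gclm stood at 159, 174 and 142 CPM around ACPC-NP, at 83.3, 108 and 121 CPM around CaP, and at 90.8, 67.5 and 106 CPM around PCL. The 3 ACPC-NP libraries were then the 3 highest of that week, as for 7.17% of all genes, with a difference of 0.73 ± 0.17 (1.65-fold; adjusted p = 0.105, edgeR). Against that mean at week 6, edgeR called 0 of the 8 genes and Gclm alone had an unadjusted p under 0.05. DESeq2 called Gclm, beside 7.14% of genes, and voom called Gclm and Gsr, beside 29.3%.

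In the plain pairs of scaffolds edgeR called 0 of the 8 genes, as it called 0% of all genes in each pair. At week 2, 5 of 8 had an unadjusted p under 0.05 against PCL (beside 15.7% of genes) and 5 of 8 against CaP (also 15.7%), the 5 being Akr1b8, Nqo1, Txnrd1, Srxn1 and Slc7a11, all higher. DESeq2 called 4 against PCL (5.23% of genes) and 5 against CaP (4.92%), and voom 2 (2.38%) and 3 (3.09%); none of these was called by either tool without replicate 3. Both comparisons use the same ACPC-NP libraries. Leaving out another ACPC-NP library had the opposite effect: edgeR called 4 against PCL and 5 against CaP without replicate 1, beside 7.34% and 7.47% of all genes, and 3 and 2 without replicate 2, beside 3.21% and 1.18%. CaP and PCL did not separate at week 2, with 0 calls in edgeR, DESeq2 and voom and 0 of 8 at an unadjusted p under 0.05, beside 1.55% of genes.

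At week 6, ACPC-NP against PCL had 0 calls in edgeR and 1 of 8 at an unadjusted p under 0.05, Gclm, beside 21.9% of genes. Gclm differed by 0.85 ± 0.20 (adjusted p = 0.0783, edgeR; 0.0501 without replicate 3 of week 2), and DESeq2 called it with adjusted p = 0.00765 (7.81% of genes called) and voom with 0.00261 (34.2%). Gsr around PCL stood at 182 CPM in replicate 1 and at 75.1 and 85.9 CPM in the others, against 191, 186 and 140 CPM around ACPC-NP. Without PCL week 6 replicate 1, edgeR called Gsr (1.08) and Gclm (0.85) higher around ACPC-NP. The share of all genes called in that fit is not given here, so these calls cannot be read as particular to Gsr and Gclm. With that library the Gsr difference was 0.59 ± 0.32 (adjusted p = 0.291, edgeR), though voom, which gives a deviating library less weight, called it. Against CaP at week 6, edgeR, DESeq2 and voom each called 0, and only Gclm (0.60 ± 0.20, adjusted p = 0.520, edgeR) had an unadjusted p under 0.05, beside 9.34% of genes. CaP against PCL at week 6 had 0 calls in the 3 tools and 0 of 8 at an unadjusted p under 0.05, beside 2.57% of genes.

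**Figure D2:**
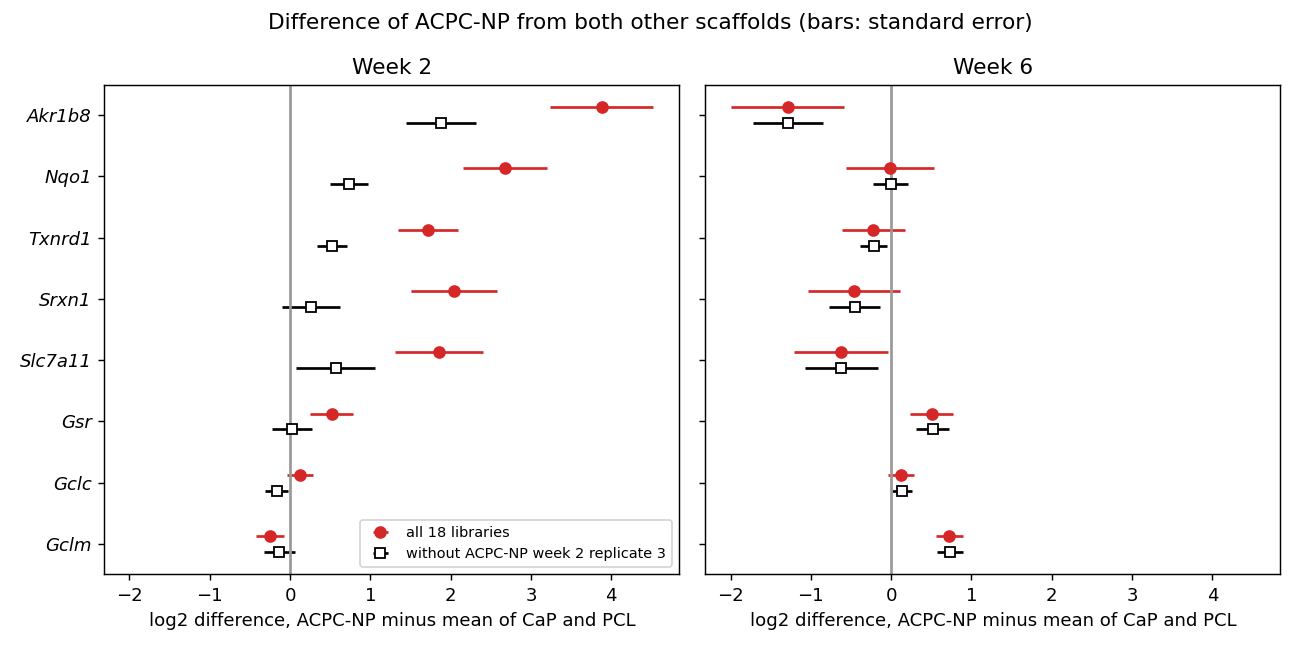
Difference of ACPC-NP from the mean of CaP and PCL for each gene on the log2 scale, at week 2 (left) and week 6 (right). Points are fitted differences and bars their standard errors, filled red with all 18 libraries and open black without ACPC-NP week 2 replicate 3. At week 2 Akr1b8 falls from 3.88 to 1.88 and Srxn1 from 2.04 to 0.26 without that library, while at week 6 the paired points differ little.

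From week 2 to week 6 around ACPC-NP, 5 of the 8 genes were lower and Gclm higher at an unadjusted p under 0.05, beside 19.8% of genes, but edgeR called 0 of 8 (0.00846% of all genes). Akr1b8 differed by -4.17 ± 0.85 (adjusted p = 0.0870, edgeR), Nqo1 by -2.43 ± 0.66 (adjusted p = 0.0983) and Txnrd1 by -1.66 ± 0.46 (adjusted p = 0.102), all smaller without replicate 3 of week 2, at -2.16, -0.47 and -0.46. DESeq2 called 5 and voom 3, beside 6.55% and 11.4% of genes; without that library each called 1, beside 0.895% and 1.02%, which for DESeq2 was Akr1b8 (adjusted p = 0.00834) and for voom Gclc (0.61, adjusted p = 0.0487). Around PCL, Akr1b8 was 1.23 ± 0.77 higher at week 6 (adjusted p = 0.620, edgeR) and its 2 ranges, 7.97 to 19.6 and 22.0 to 45.2 CPM, did not overlap, as for 7.76% of genes. EdgeR and DESeq2 called 0 of 8 there, 0 had an unadjusted p under 0.05 (9.87% of genes), and voom called Gclc higher and Gsr lower, beside 14.7% of genes. Around CaP the 3 tools called 0, and Gclm alone had an unadjusted p under 0.05, lower at week 6 by -0.46 ± 0.20 (adjusted p = 0.953, edgeR), beside 4.82% of genes.

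For the change of the scaffold difference with week, edgeR called 0 of 8 against PCL and 0 of 8 against CaP, with 6 of 8 at an unadjusted p under 0.05 in each, beside 15% and 14.2% of genes. These 6 were Akr1b8, Nqo1, Txnrd1, Srxn1 and Slc7a11 with a lower difference at week 6, and Gclm with a higher one (0.93 ± 0.29 against PCL and 1.02 ± 0.29 against CaP). DESeq2 called 1 in each, Akr1b8, beside 1.12% and 1.63% of genes, and voom 4 and 1, beside 16.3% and 1.41%. Without replicate 3 of week 2, 3 of 8 had an unadjusted p under 0.05 in each, beside 8.31% and 7.85% of genes: Akr1b8, Gclm and Txnrd1.

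Replicate 3 of ACPC-NP at week 2 did not raise the 8 genes alike. Against the median of the other 17 libraries, its CPM was 26.5 times as high for Akr1b8, 14.5 for Nqo1, 9.92 for Srxn1, 6.65 for Slc7a11 and 6.21 for Txnrd1. For Gsr it was 2.18 times as high, for Gclc 1.31, and for Gclm 0.731. Scaled by total count alone the ratios were lower, from 18.4 for Akr1b8 to 0.507 for Gclm, and Gclc was then at 0.954, below the median of the others. Replicate 2 of the same group was the second highest of the 18 libraries for Akr1b8, Nqo1 and Txnrd1, at 74.6, 60.8 and 240 CPM.

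Genes of the immediate early response were also high in replicate 3. Their 9 markers (Fos, Fosb, Jun, Junb, Egr1, Ier2, Ier3, Atf3 and Dusp1), which can also rise during tissue digestion, summed to 10882 CPM in replicate 3 of ACPC-NP at week 2 and to 1259 to 3274 CPM in the other 17 libraries. All 9 were detected, and over those 17 libraries Spearman's rho with this sum was 0.83 for Slc7a11, 0.81 for Txnrd1, 0.77 for Akr1b8, 0.70 for Srxn1 and 0.60 for Nqo1. For Gclc it was -0.01, for Gsr -0.25 and for Gclm -0.64. These are descriptions over libraries that share their scaling, and the part of digestion or of the immediate early response in the levels of the 8 genes was not tested. The sum of the 6 osteoclast markers found, of 8 listed, was also higher around ACPC-NP at week 2. It was 1549 to 2161 CPM in all 3 libraries, against 1183 to 1344 CPM around CaP and PCL. Mmp9 weighs most in this sum, with a mean log2 CPM of 9.90 against 7.30 for Acp5, the next highest. The markers are not given singly here, so a rise of the set as a whole is not shown. Osteoblast markers in replicate 3 summed to 7908 CPM, against 20947 and 21884 CPM in the other 2 libraries of its group. Col1a1 weighs most in that sum, with a mean log2 CPM of 13.44 against 7.96 for Bglap, the next highest. B cell markers were lower around ACPC-NP at week 2, at a summed 599 to 759 CPM against 815 to 1133 CPM, also without overlap, and over the 17 libraries Nqo1 ran against this sum (rho -0.70). The part of any of these cell types in the result was not tested.

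Gclm followed the erythroid markers instead. Of 11 markers, 10 were in the table, Gata1 was at 0 throughout, and the rest summed to 55337 to 74345 CPM around ACPC-NP at week 6, where Gclm was highest, against 24700 to 56195 CPM in the other groups. Over the 17 libraries without replicate 3, rho between Gclm and this sum was 0.85, beside -0.72 for Akr1b8, -0.67 for Slc7a11 and -0.64 for Txnrd1. Hbb weighs most in this sum, with a mean log2 CPM of 14.92 against 12.10 for Slc4a1, the next highest. Gsr followed the summed neutrophil markers (0.72) and the summed monocyte and macrophage markers (0.64) and ran against the summed B cell markers (-0.72). Lyz2 weighs most in the monocyte and macrophage sum, at 12.85 against 8.14 for Csf1r, the next highest. The markers are not given singly here, so these sums do not show each set as a whole. Neutrophil markers summed to 26564 to 38029 CPM around ACPC-NP at week 6 and to 14691, 20767 and 36414 CPM around PCL. The PCL library with the highest Gsr had the highest of these PCL sums. It also had the highest monocyte and macrophage sum of all libraries, 11906 CPM. The part of cell composition in the Gclm and Gsr differences was not tested.

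**Figure D3:**
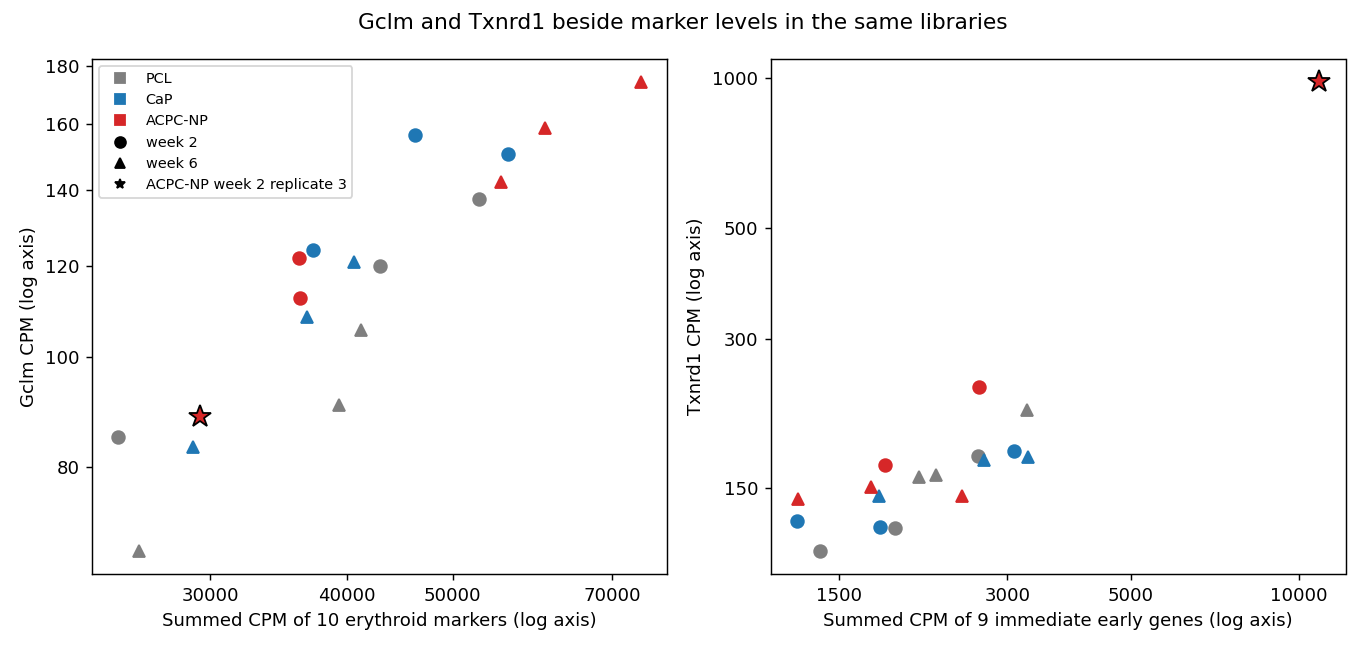
Gclm beside the summed CPM of 10 erythroid markers (left) and Txnrd1 beside that of 9 immediate early genes (right), 1 point per library, all axes logarithmic. Colours give the scaffold, circles week 2, triangles week 6 and the star ACPC-NP week 2 replicate 3. Gclm runs along the erythroid sum with a rho of 0.85 without the star, and the star lies alone at 10882 CPM of immediate early genes and 981 CPM of Txnrd1.

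Among themselves the genes fell along the same lines. Over 17 libraries, rho was 0.93 between Txnrd1 and Slc7a11, 0.83 between Srxn1 and Slc7a11, 0.78 between Txnrd1 and Srxn1 and 0.77 between Akr1b8 and Slc7a11. The subunits of glutamate-cysteine ligase did not vary together (rho 0.02 between Gclc and Gclm), and Gclm ran against Akr1b8 (-0.75). Among the 9 libraries of week 6 alone, rho was 0.92 between Txnrd1 and Slc7a11 and -0.93 between Akr1b8 and Gclm. Of 10086 genes compared over all 18 libraries, those most like each gene were Tgfbr1, Tnfaip2 and Arl8b for Akr1b8 (rho 0.92 to 0.90), Sgk1, P2ry2 and Ndrg1 for Nqo1 (0.94), and Slc7a11, Sdc4 and Zfand2a for Txnrd1 (0.94). They were Ptgs2, Mapk6 and Hspa5 for Srxn1 (0.94 to 0.93), Zfand2a, Txnrd1 and Maff for Slc7a11 (0.94), Ehd1, Taldo1 and Rhbdd1 for Gsr (0.97 to 0.94), and Lnc134, Dapk2 and Cdr2 for Gclm (0.98). Gclc had no gene as close, with Hspa4l, Zfp347 and Sp2 at 0.76 to 0.73. Without replicate 3 the 3 genes closest to Gclm were Lnc134, Slc4a1 and Fech (0.98), of which Slc4a1 is one of the erythroid markers.

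The rest of the pathway was described by 6 lists, without the 8 genes, against the joint mean of CaP and PCL. The list counts of week 2 stand beside 4.88% of all genes that edgeR called higher in that comparison. At week 2, 1 of 9 regulators of NRF2 tested was called higher, Maff, a small MAF protein, at 33.4, 56.0 and 419 CPM around ACPC-NP against 13.9 to 52.1 CPM in the 6 others (2.47 ± 0.62, adjusted p = 0.0343, edgeR). Replicate 3 again stood highest, and without it the difference was 0.54 (adjusted p = 0.931). The median of the regulators was 0.33 with replicate 3 and -0.04 without it. Of 24 other genes known as NRF2 targets, 4 were called higher and 0 lower: the ferritin chains Fth1 (3.68 ± 0.64) and Ftl1 (1.70 ± 0.41), which store iron, the haem oxygenase Hmox1 (2.55 ± 0.50) and the peroxiredoxin Prdx1 (1.12 ± 0.28). Without replicate 3 these differences were 1.10, 0.31, 0.80 and 0.30. The median difference of the list was 0.45, beside -0.02 for all genes, and 0.06 without replicate 3. Fth1 stood at 1658, 4569 and 49702 CPM around ACPC-NP, above the 1347 to 1610 CPM of the 6 others in each library. Such a separation held for 5.8% of all genes. Hmox1 stood at 163, 344 and 2037 CPM against 118 to 172 CPM.

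In the list of glutathione synthesis and use 3 of 30 genes were called higher at week 2, again beside 4.88% of all genes. They were Anpep (2.29 ± 0.43) and Ggt5 (1.55 ± 0.41), which act on glutathione products at the cell surface, and the transferase Gsto1 (0.59 ± 0.16). Without replicate 3 these differences were 1.02, 0.27 and 0.32. In the thioredoxin and peroxiredoxin list 3 of 16 were called higher: Prdx5 (2.05 ± 0.41), Prdx1, also a member of the target list, and Txnip (0.90 ± 0.23), an inhibitor of thioredoxin; without replicate 3 Prdx5 differed by 0.79 and Txnip by 0.49. Among superoxide, peroxide and oxidase genes 2 of 11 were called higher, the mitochondrial superoxide dismutase Sod2 (2.98 ± 0.54) and the inducible nitric oxide synthase Nos2 (3.59 ± 0.70). Sod2 stood at 294, 665 and 4226 CPM around ACPC-NP against 158 to 288 CPM in the 6 others, and without replicate 3 differed by 1.12. Nos2 stood at 201, 890 and 6367 CPM against 100.1 to 345 CPM, with replicate 1 inside that range, and differed by 1.40 without replicate 3. Of 11 aldo-keto reductases tested 1 was called, Akr1b10 (2.15 ± 0.57, adjusted p = 0.0411, edgeR), at 0.708, 1.03 and 5.39 CPM around ACPC-NP, a low level that in replicates 1 and 2 lay within the 0.158 to 1.11 CPM of the others. Without replicate 3 its difference was 0.72. No list had a gene called lower. Over all lists DESeq2 called 16 of 100 genes higher, beside 8.01% of all genes, and voom 6 of 98, beside 7.4%. Without replicate 3 edgeR called 0 of 98, beside 0.0837% of all genes. At an unadjusted p under 0.05, 9 were higher and 1 lower, beside 6.89% of all genes. DESeq2 then called Anpep and Fth1 and voom called Anpep, all higher, beside 0.713% and 0.62% of all genes. The medians of these 4 lists were 0.01 to 0.11, beside -0.02 for all genes, and -0.01 to 0.08 without replicate 3.

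At week 6 edgeR called 0 genes of the 6 lists, as it called 0% of all genes, while 5 of 24 targets, 9 of 30 glutathione genes, 5 of 16 thioredoxin and peroxiredoxin genes, 3 of 11 aldo-keto reductases, 1 of 11 oxidase genes and 1 of 9 regulators were higher at an unadjusted p under 0.05, beside 9.62% of all genes; 0 were lower. The other tools made calls there. DESeq2 called 12 of the 78 list genes to which it gave an adjusted p, all higher, beside 7.14% of all genes called in either direction. Voom called 38 higher and 3 lower of 98, beside 29.3% of all genes called in either direction. The medians were 0.33 for the target list, 0.28 for glutathione, 0.21 for thioredoxin and peroxiredoxin, 0.23 for aldo-keto reductases, 0.05 for superoxide and oxidase genes and -0.05 for regulators, beside 0.00 for all genes. The genes with the smallest p included Glrx5 (0.85 ± 0.18, adjusted p = 0.105, edgeR), which serves iron-sulfur clusters, Fech (0.78 ± 0.19), the last enzyme of haem synthesis, Blvrb (0.72 ± 0.19), a biliverdin reductase of red cells, and the glutathione peroxidase Gpx1 (0.69 ± 0.16). Prdx2, the main peroxiredoxin of red cells, followed at 0.66 ± 0.18, and catalase (Cat) at 0.66 ± 0.20; DESeq2 and voom called these 6 genes. Keap1, the inhibitor of NRF2, stood at 59.5 to 60.9 CPM in the 3 ACPC-NP libraries against 48.3 to 53.8 CPM in the 6 others. Its difference was small, 0.25 ± 0.07 (adjusted p = 0.115, edgeR), with no overlap, as for 7.17% of all genes, and DESeq2 and voom called it. Of the other genes named by p alone, Prdx3, a mitochondrial peroxiredoxin, differed by 0.48, the aldo-keto reductases Akr7a3 and Akr7a2 by 1.08 and 0.41, the oxidase subunit Cyba by 0.37 and the KEAP1-binding adaptor Sqstm1 by -0.68. Glrx5 stood at 347, 365 and 293 CPM around ACPC-NP against 128 to 216 CPM around CaP and PCL, also among the 7.17% with no overlap. Within week 6 these ACPC-NP libraries had the highest erythroid marker sums, as given above, and the part of erythroid cells in these differences was not tested.

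**Figure D4:**
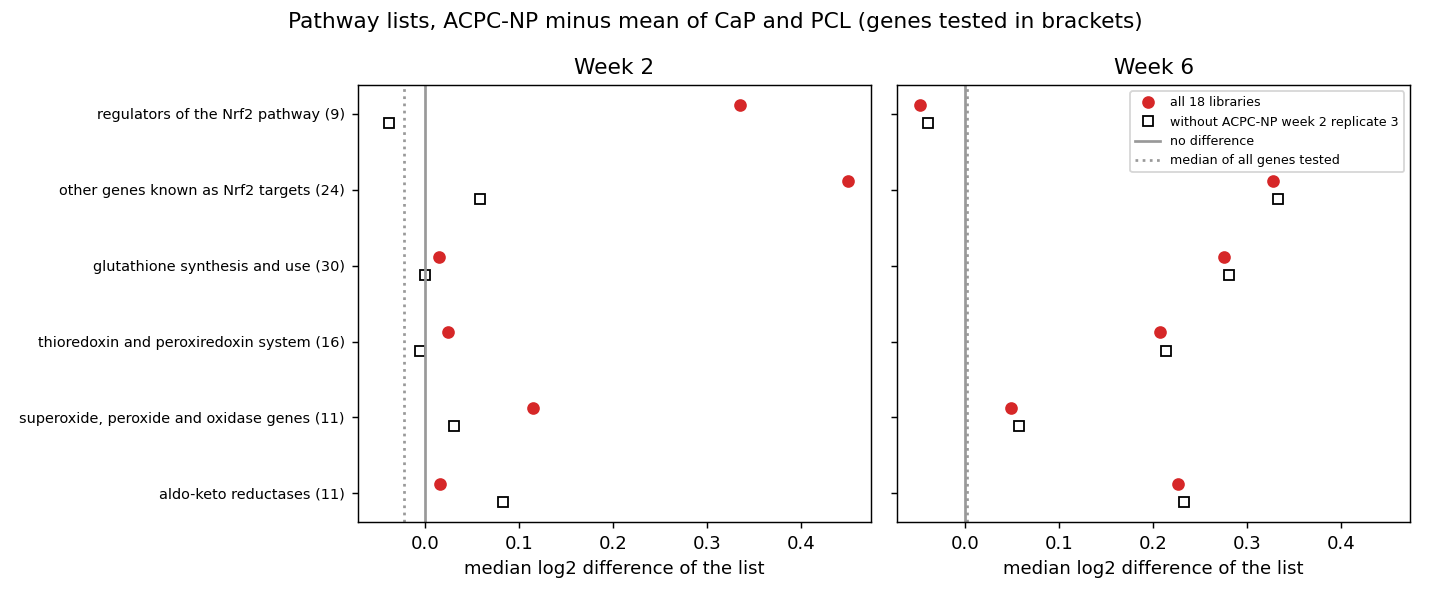
Median difference of ACPC-NP from the mean of CaP and PCL on the log2 scale for 6 lists of related genes, with the number tested in brackets, at week 2 (left) and week 6 (right). Filled red points are from all 18 libraries, open squares without ACPC-NP week 2 replicate 3, and the dotted line is the median of all genes tested. At week 2 the target list falls from 0.45 to 0.06 without that library, and at week 6 it stands at 0.33 both ways.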

How the data were processed

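Read counts were measured by bulk mRNA sequencing in 18 rat libraries. Per the submitters' processing notes, bcl2fastq 2.20.0, STAR 2.7.9a, featureCounts and Subread 2.0.1 were used with build Rnor_6.0; the sources used here give no strand setting, annotation or treatment of reads that match several genes. The count table that the authors deposited holds whole reads per gene symbol, and every test used it as it stands. The deposited normalised values have the unit signal, each a count divided by 1 size factor per library, and were not used in any test. Groups were taken from the sample titles.

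Counts were filtered with filterByExpr (minimum count 10, minimum total 15; 11814 of 17337 genes, 99.98% of all counts), scaled by TMM and tested with edgeR 4.0.16 in R 4.3.3 (robust quasi-likelihood fit with a term per group, 12 residual degrees of freedom, biological coefficient of variation 26.0%). P-values were adjusted by Benjamini-Hochberg over all genes tested in each of 13 comparisons, with a threshold of 0.05. Levels are CPM per library and differences are log2 values with their standard error; log2 CPM used a prior count of 2. Alternatives were DESeq2 1.42.0, voom with quality weights (limma 3.58.1), edgeR with DESeq2 size factors, with no filter on low counts, on only the groups compared, or with a block for the replicate number, and each library left out in turn. Chosen after seeing the data were scaling by total count and DESeq2 and voom without ACPC-NP week 2 replicate 3. No 2 libraries of a group were duplicates (lowest chi-square per degree of freedom 30.5). At this depth counting error is small beside the spread between libraries for the 8 genes, whose lowest count in any library was 166. It is larger for named genes near the floor, such as Akr1b10, which went down to 0.158 CPM. Scripts were tested on simulated data.

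The 8 genes and all lists were chosen with earlier results of these data known. From each list the text names the genes past the threshold, or the 2 with the smallest p where none passed, and, for each of the 8 genes, the 3 genes of log2 CPM of at least 1 with the highest Spearman correlation. The list entry Akr1c15 was matched to the table's symbol Akr1cl by a synonym.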

Additional observations from a re-analysis of the deposited data

Results flagged for a closer look

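The difference of Akr1b8 between ACPC-NP and the other scaffolds had opposite directions at the weeks sampled. All 3 ACPC-NP libraries lay above the 6 CaP and PCL libraries at week 2, at 29.1 CPM or more against 22.9 CPM or less, and all 3 lay below them at week 6, at 15.3 CPM or less against 17.2 CPM or more. The interaction of scaffold and week was -5.40 ± 1.14 on the log2 scale against PCL, with an adjusted p of 0.278 by edgeR, so it missed the threshold there. DESeq2 (adjusted p = 0.000308) and voom (adjusted p = 0.00952) called it, and without ACPC-NP week 2 replicate 3 the values were -3.38 ± 0.71 with an adjusted p of 0.467 by edgeR, 0.00278 by DESeq2 and 0.0286 by voom. Against CaP the interaction was -4.93 ± 1.13 (adjusted p = 0.244, edgeR; 0.00339 by DESeq2; 0.0434 by voom), and without that library -2.93 ± 0.71, with an adjusted p of 0.439 by edgeR, 0.0335 by DESeq2 and 0.128 by voom, so voom no longer called it.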

How the results depend on the processing

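No called value changed direction, but few could, as edgeR called 4 of the 104 differences of the 8 genes. Of 1704 recomputed values of these genes and their counts, 0 reversed. A change of sign in an uncalled value did not count as reversed, and 87 uncalled values changed sign. The share of all genes called also moved between fits. In ACPC-NP against both other scaffolds at week 2 it was 4.99% with all libraries and 0.0837% without ACPC-NP week 2 replicate 3. Against PCL at week 2 it was 0% with all libraries and 7.34% without ACPC-NP week 2 replicate 1. Where no share is given, a count below cannot be read as particular to the 8 genes. The number of the 8 genes called moved as follows, from 4 in ACPC-NP against both other scaffolds at week 2 and from 0 elsewhere. At week 2 that count of 4 was 0 with only the groups compared, 1 by DESeq2 and 1 by voom over 17 libraries, and 0 to 5 with each library left out in turn; it was 0 without ACPC-NP week 2 replicate 3 and 2 without PCL replicate 1 or 3 or CaP replicate 1 or 2. Against PCL at week 2 it was 4 by DESeq2, 2 by voom and 0 to 4 with a library left out, and against CaP 5, 3 and 0 to 5. At week 6 against PCL it was 1 by DESeq2, 2 by voom, 2 and 3 by these over 17 libraries, and 0 to 2 with a library left out; against the mean of CaP and PCL it was 1, 2, 2, 2 and 0 to 2. The 2 was reached without PCL week 6 replicate 1. For week 6 against week 2 it was 5 by DESeq2, 3 by voom, 1 and 1 over 17 libraries and 0 to 5 with a library left out around ACPC-NP, and 2 by voom with either set of libraries around PCL. For the interaction against PCL it was 1 by DESeq2, 4 by voom, 1 and 2 over 17 libraries and 0 to 3 with a library left out, and against CaP 1, 1, 1 by DESeq2 over 17 libraries, and 0 to 1. Leaving out ACPC-NP week 2 replicate 1 gave the highest counts of week 2 and of the interactions. A fit with fewer libraries also has fewer degrees of freedom, and the cause of these moves was not tested.

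The replicate numbers do not pair the libraries: 18 of 45 same-numbered pairs had deviations correlated above 0.1 (from -0.33 to 0.42), and 7 of 18 libraries correlated best with their own number. With the replicate number as a block, the count was 2 instead of 4 in ACPC-NP against both other scaffolds at week 2 (Txnrd1 at an adjusted p of 0.0546 and Srxn1 at 0.109), and 1 instead of 0 (Gclm) in ACPC-NP against PCL at week 6; the other counts were as without it. DESeq2 size factors and no low-count filter left every count within 1.5 times the reported one. Scaling by total count gave 3 instead of 4, with Srxn1 at 1.63 and an adjusted p of 0.0646.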
